A study of Homo sapiens with 4 samples.

Results

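CDKN1A encodes p21, a protein that binds and inhibits cyclin-dependent kinases and so holds back the cell cycle. It is a classical target gene of the transcription factor p53, and it is also known to be induced by histone deacetylase inhibitors without p53, through GC-rich sites close to its start. In colorectal cells p21 is further linked to growth arrest and differentiation. Treated HCT116 cells with many and with no CDKN1A counts are compared here, for every other measured gene and for transposable element (TE) RNA.

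HCT116 is a human colorectal cancer line, and H1299, the other line studied, comes from a human lung carcinoma and lacks p53. Both lines, at passage 5 to 10, were given either DMSO, the solvent, or DAC (decitabine, an inhibitor of DNA methyltransferases) at 500 nM for 72 h together with SB939 (pracinostat, an inhibitor of histone deacetylases) at 500 nM for 18 h, with medium renewed every 24 h. The groups are called DMSO and DAC+SB. Each of the 4 combinations was 1 library of 5′ single-cell RNA sequencing, in which counts lie near transcript starts, and the series holds 15289 cells.

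The HCT116 DAC+SB library held 4327 cells. Of these, 3279 had at least 5000 counts over genes and TEs and were used, and 1048 shallower cells were left out. Each cell was scored by its CDKN1A counts over all its gene counts, and the groups were chosen by that score. The 820 cells in the top 25% are called CDKN1A-high, the 1465 cells with no CDKN1A count CDKN1A-low, and the 994 others between. High cells held 2440 CDKN1A counts and the cells between 1216. The lowest score in the high group was 169.3 CPM (the count scaled to a total of 1e6 gene counts), the highest score below it was 169.0 CPM, and the median and highest high cell had 251 and 1546 CPM. These values chose the cells and are no finding.

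A high score rested on few counts. Of the high cells, 94 had 1 CDKN1A count, 300 had 2 and 426 had 3 or more, up to 15, and the 94 cells with 1 count were shallow, with a median of 5605 counts. Median depth was 10157.5 counts in high cells, 11925 in the cells between and 9123 in low cells. A low cell is thus a cell in which CDKN1A was not detected, and the groups overlap in their true level to an unknown extent. The median mitochondrial share was 16.3% in high, 15.9% in between and 18.0% in low cells, and cells above 25% mitochondrial counts made up 12.1%, 8.25% and 17.0%. Values that bear on depth and mitochondrial share are given beside the results below, and their part was not otherwise tested. The library shared 30, 21 and 20 cell barcodes with H1299 DAC+SB, H1299 DMSO and HCT116 DMSO.

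Markers of the lines were checked in both groups. Of 10 HCT116 markers 4 reached 100 counts over both groups, and all 10 summed to 85.3 CPM in high and 77.9 CPM in low cells. Likewise 4 of 10 H1299 markers reached that number, led by VIM at 308 CPM in high and 253 CPM in low cells. All 10 H1299 markers summed to 435 CPM in high and 357 CPM in low cells, above the HCT116 markers. In HCT116 DMSO they summed to 68.3 and 71.3 CPM. The median thinned share of the HCT116 markers was 0 in each group. The markers thus cannot assign single cells of this library to a line. The log2 ratio of high over low for the H1299 markers was 0.28 (0.22 to 0.35), and its part in the other ratios was not tested.

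The CDKN1A promoter is shown first, since it carries the gene that defines the comparison. Below are the 250 bases before the RefSeq start sites of CDKN1A (chr6:36678464-36678713) and of ULBP2 (chr6:149941764-149942013), a gene higher in CDKN1A-high cells, both on the plus strand of GRCh38.p14, with GC boxes in capitals. A GC box is the motif GGGCGG, searched on both strands, overlapping matches counted apart.
CDKN1A: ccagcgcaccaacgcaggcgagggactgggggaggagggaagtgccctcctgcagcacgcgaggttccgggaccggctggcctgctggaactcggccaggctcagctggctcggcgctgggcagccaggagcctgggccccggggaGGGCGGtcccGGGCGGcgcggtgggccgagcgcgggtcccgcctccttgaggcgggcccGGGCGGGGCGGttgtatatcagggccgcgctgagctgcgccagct
ULBP2: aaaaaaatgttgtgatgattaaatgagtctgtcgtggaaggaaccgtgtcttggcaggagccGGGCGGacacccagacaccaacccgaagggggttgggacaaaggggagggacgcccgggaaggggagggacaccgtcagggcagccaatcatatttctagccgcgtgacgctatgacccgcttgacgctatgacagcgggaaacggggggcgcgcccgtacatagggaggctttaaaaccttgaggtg
CDKN1A holds 4 matches, starting 104, 94, 45 and 40 bases before the start, the last pair overlapping, and ULBP2 holds 1. At least 4 matches were found in 9.24% of 27305 genes with a RefSeq promoter, and at least 1 in 46.2%. Among the genes tested here, 7771 had a promoter entry, of which 77.5% held a match and 18.6% at least 4. The motif is therefore common among expressed genes. Of the 15 named higher genes described below, 10 had an entry and 9 of these a match, and of the 15 named lower genes 3 had an entry and all 3 a match.

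CDKN1A itself was more abundant after treatment in both lines. Over cells with at least 5000 counts it stood at 110 (107 to 114) CPM in HCT116 DAC+SB and at 30.6 (29.2 to 32.0) CPM in HCT116 DMSO, a log2 ratio of 1.85 (1.77 to 1.93). In H1299 it stood at 123 (120 to 126) CPM with DAC+SB and at 52.6 (50.8 to 54.4) CPM with DMSO, a log2 ratio of 1.22 (1.16 to 1.28). Intervals here and below are 95% and cover counting error only. They do not cover variation between cultures, since each group was 1 library, and no p-value was computed.

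After every cell was thinned to 5000 counts, CDKN1A was detected in 35.8% (34.2 to 37.5) of HCT116 DAC+SB cells and in 13.0% (11.9 to 14.1) of HCT116 DMSO cells, against 55.3% and 30.8% before thinning. It was detected in 39.6% of H1299 DAC+SB and 19.7% of H1299 DMSO cells. Thinned HCT116 DAC+SB cells averaged 0.524 CDKN1A counts with a variance 1.40 times the mean, and 64.2% had none, where a Poisson distribution of that mean would give 59.2%. Scores taken after thinning, an alternative used below, set 821 cells as high and the 2104 cells with no thinned count as low. Only 261 cells had 2 thinned counts and 112 had 3 or more, so many of the 802 cells with 1 count were high. At 5000 counts in all, these were the cells with fewest gene counts, that is with most TE counts. The deposited table splits CDKN1A into a feature with a number and one without, which held 68.0% and 32.0% of its counts. The sources used here do not say what the number marks, so values that change between the features are given below without a reading of what separates them. Of 1416 cells with the numbered feature 30.01% also had the other, against 21.4% of the cells without it, but the former were deeper (median 11237 against 9393 counts). The Spearman correlation of the features' shares over 3279 cells was 0.075, as a description. Where cells are scored by 1 feature alone below, cells with only the other feature count as low. For the feature without a number, the 2456 low cells include the 991 cells with only the numbered feature. A ratio that shrinks or turns in that setting is therefore no separate check of the reported one.

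**Figure D1:**
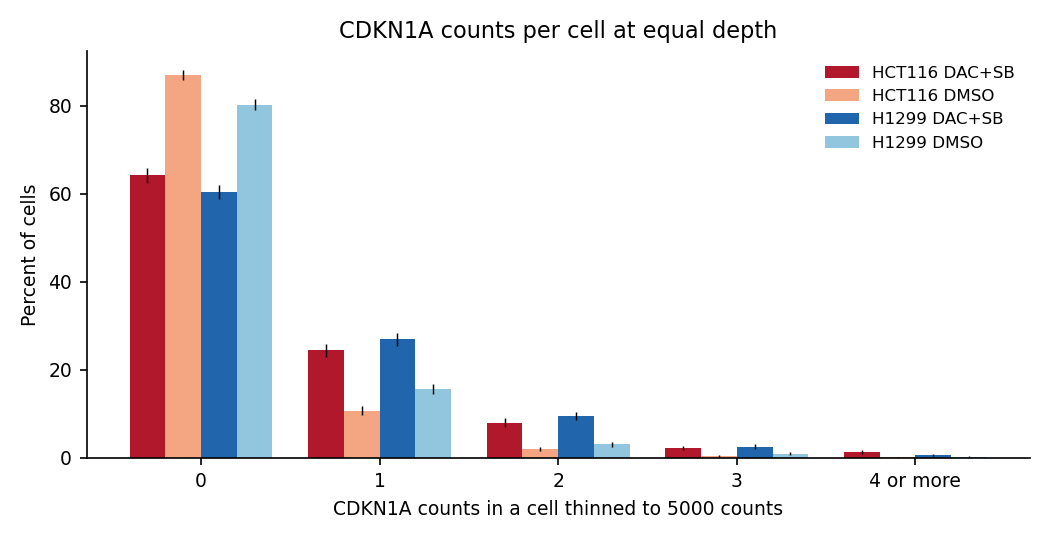
Share of cells (percent, y axis) by CDKN1A counts per cell after thinning to 5000 counts (x axis), 1 colour for each library, with bars for the share and lines for the exact 95% binomial interval. Cells with none make up 64.2% of HCT116 DAC+SB and 87.0% of HCT116 DMSO, and cells with 4 or more 1.25% and 0.110%.

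Across the transcriptome the high and low cells were close. Of 10607 genes with at least 100 counts over both groups, CDKN1A left out, 107 were at least 1.5-fold higher in CDKN1A-high cells (1.01% of the genes tested) and 90 were at least 1.5-fold lower (0.848%). More genes were lower than higher without mitochondrial and ribosomal protein genes, with 58 higher and 131 lower, and with scores from the numbered CDKN1A feature, with 73 higher and 186 lower. Without cells above 25% mitochondrial counts 98 were higher and 72 lower. Their CPM were taken over gene counts without CDKN1A. At 2-fold, 2 genes were higher and 7 lower. Among the 4363 genes with at least 500 counts, 8 were higher and 5 lower, so most of the genes past 1.5-fold were thinly counted. The median log2 ratio over all tested genes was 0.05, so most genes lay above 0. Counts of list members above 0 are to be read beside that. In the other libraries the same rule gave 409 higher and 182 lower of 12179 genes in H1299 DAC+SB, 114 and 164 of 12049 in H1299 DMSO, and 92 and 72 of 12088 in HCT116 DMSO. The groups there were unlike those here. The lowest high score was 174 CPM in H1299 DAC+SB, 81.0 CPM in H1299 DMSO and 49.4 CPM in HCT116 DMSO. In HCT116 DMSO 476 of 910 high cells had 1 count. Median depth in H1299 DAC+SB was 16250 counts in high and 12766.5 in low cells.

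**Figure D2:**
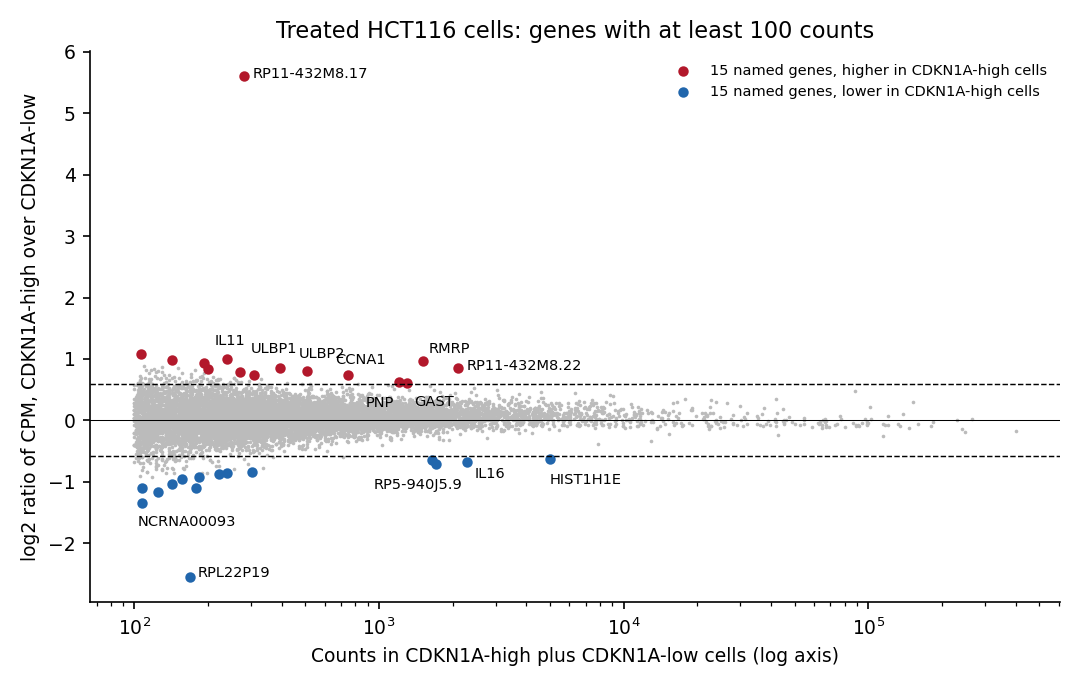
Each grey point is 1 of 10607 genes, placed by its counts in CDKN1A-high plus CDKN1A-low cells of HCT116 DAC+SB (log x axis) and by the log2 ratio of its CPM (y axis). Dashed lines mark 1.5-fold, red and blue points are the 15 highest and 15 lowest genes by interval bound, and of the 4363 genes with at least 500 counts 8 lie above and 5 below the lines.

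Ligands that mark stressed cells for natural killer cells were among the genes higher in CDKN1A-high cells. ULBP1 and ULBP2 are surface ligands of NKG2D, an activating receptor of natural killer and T cells, and lie side by side on chromosome 6 (ULBP1 at chr6:149964007-149973710 and ULBP2 at chr6:149942000-149949235, plus strand, GENCODE v29 on GRCh38). ULBP1 stood at 25.2 CPM in high, 16.8 CPM in between and 13.9 CPM in low cells, from 207, 196 and 185 counts. Its log2 ratio of high over low was 0.85 (0.56 to 1.15). ULBP2 stood at 32.2, 24.3 and 18.4 CPM, and its log2 ratio was 0.81 (0.56 to 1.07). The counts were spread over cells: ULBP2 was seen in 193 high, 212 between and 191 low cells, and after thinning in 13.5%, 9.15% and 7.44% of each group. Without the cell with most counts in each group the log2 ratios were 0.78 for both genes. With scores taken after thinning they were 0.86 for ULBP1 and 0.47 for ULBP2, and with scores from the CDKN1A feature without a number 0.15 and 0.33, so ULBP2 fell below 1.5-fold in both cases and ULBP1 in the latter.

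Other NKG2D ligands, chosen after their values were seen, did not all share this. MICA and MICB had log2 ratios of 0.35 (0.21 to 0.50) and 0.46 (0.11 to 0.81), below 1.5-fold, whereas ULBP3 at -0.06 (-0.68 to 0.54) and RAET1G at -0.24 (-0.89 to 0.39) had intervals that span 0.

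The cytokine IL11 (chr19:55364389-55370463, minus strand), a member of the interleukin-6 family, stood at 16.0 CPM in high, 12.9 CPM in between and 8.05 CPM in low cells, a log2 ratio of 1.00 (0.62 to 1.38). IL6ST (chr5:55935095-55994993, minus strand) encodes gp130, the signalling receptor chain that IL11 and other members of the family share. It stood at 19.0, 14.4 and 11.4 CPM, a log2 ratio of 0.74 (0.41 to 1.07). The IL11-specific receptor chain IL11RA, chosen after its values were seen, had a log2 ratio of -0.12 (-0.55 to 0.30). IL11 counts came from 74 high and 78 low cells with at most 7 counts in a cell, and IL6ST counts from 125 and 134 cells with at most 3. Both fell below 1.5-fold with scores taken after thinning, at log2 ratios of 0.50 and 0.52, and with scores from the CDKN1A feature without a number, at 0.44 and 0.31.

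CCNA1 (chr13:36431520-36442882, plus strand), the germline cyclin A1, stood at 46.1 CPM in high, 33.7 CPM in between and 27.5 CPM in low cells, a log2 ratio of 0.74 (0.53 to 0.95). Up to 43 of its 379 counts in high cells came from 1 cell, and the log2 ratio without the top cell of each group was 0.68. When cells were scored by the CDKN1A feature without a number alone, the ratio was -0.04. The hormone gene GAST, which encodes gastrin, stood at 77.1, 78.2 and 50.5 CPM, so that the cells between matched the high cells. Its log2 ratio was 0.61 (0.45 to 0.77). PNP, which encodes purine nucleoside phosphorylase, stood at 71.5, 46.9 and 46.3 CPM, with the cells between near the low cells, and its log2 ratio was 0.63 (0.46 to 0.79), or -0.14 with that other score and 0.33 without the 3 high cells described for RP11-432M8.17.

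The remaining named higher genes had fewer counts or rested on few cells. LYPD5, HCG27, AK4 (an adenylate kinase of mitochondria), ALPPL2 (a placental-type alkaline phosphatase) and DBNDD1 had log2 ratios between 0.79 and 1.08 from 60 to 139 counts each in high cells. LYPD5 had -0.15 in cells of 5000 to 10000 counts, so its direction turned. RMRP, the RNA of RNase MRP, had a log2 ratio of 0.97, but 1 high cell held 365 of its 826 high counts, and without the top cells the ratio was 0.15 (-0.02 to 0.33). Without cells above 25% mitochondrial counts it was 0.17, and the other 14 named higher genes stayed above 1.5-fold. RP11-432M8.17 had the highest ratio, 5.61 (4.66 to 6.75), from 272 counts in 12 high cells against 9 counts in 7 low cells. RP11-432M8.22, named after the same clone, was seen in 117 high, 157 between and 174 low cells with 1111, 1115 and 990 counts, a log2 ratio of 0.86 (0.73 to 0.98). With scores from the feature without a number, where cells with only the numbered feature count as low, the ratios of these transcripts were -4.27 and -1.02. Their direction thus depended on which feature set the groups. Without 3 high cells that held 69, 90 and 91 of the RP11-432M8.17 counts and 50, 102 and 84 of the RP11-432M8.22 counts, the ratios were 1.99 and 0.52, the latter below 1.5-fold. Of the 15 named higher genes, 14 stayed above 1.5-fold without the top cell of each group, all but RMRP, and in 14 the cells between lay between the other groups, all but GAST. With scores taken after thinning 9 of the 15 stayed above 1.5-fold, with scores from the numbered CDKN1A feature 10, and with scores from the feature without a number 2, RMRP and DBNDD1.

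**Figure D3:**
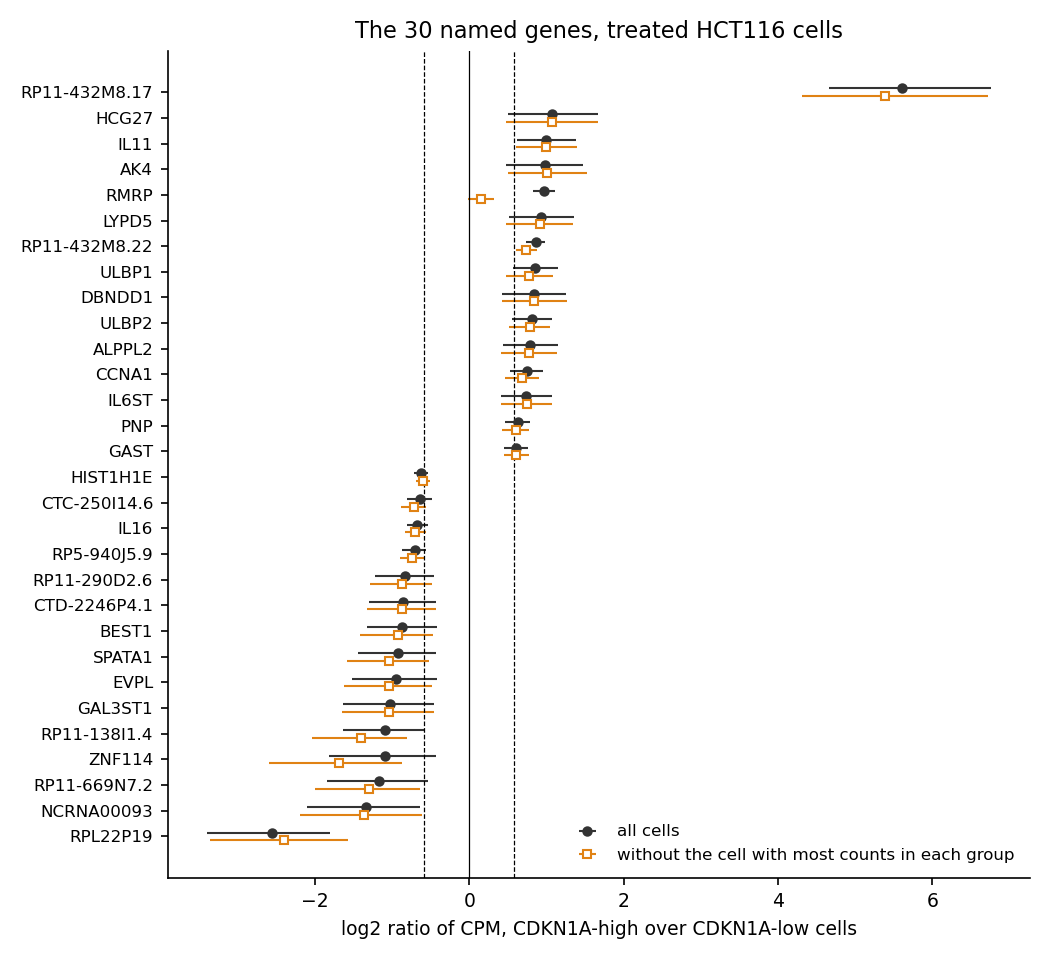
Log2 ratio of CPM in CDKN1A-high over CDKN1A-low cells (x axis) for the 30 named genes (y axis), with 95% counting intervals. Black points use all cells, open orange squares leave out the cell with most counts in each group, and dashed lines mark 1.5-fold. RMRP moves from 0.97 to 0.15, and the other 14 higher genes stay past the line.

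Among genes lower in CDKN1A-high cells, HIST1H1E had most counts. It encodes the linker histone H1.4 (chr6:26156354-26157107, plus strand) and stood at 174 CPM in high, 185 CPM in between and 267 CPM in low cells, a log2 ratio of -0.62 (-0.71 to -0.53). Thinned, it was seen in 37.4% of high, 34.5% of between and 40.8% of low cells. It was not lower under every choice: after thinning and new scoring, which favours TE-rich cells, the log2 ratio was 0.00. By thinned CDKN1A counts, as given below, it was lower in each class with a count. IL16, which encodes a cytokine that attracts CD4+ cells (chr15:81159575-81314058, plus strand), stood at 77.6, 106 and 124 CPM, a log2 ratio of -0.67 (-0.81 to -0.54), and thinned detection was 20.98%, 24.0% and 24.7%. After thinning and new scoring its log2 ratio was -0.14. Low cells held more cells above 25% mitochondrial counts, and without these the log2 ratios were -0.48 for HIST1H1E and -0.57 for IL16, both inside 1.5-fold. Over 16 alternative settings HIST1H1E was past 1.5-fold in 7 and IL16 in 10.

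The other named lower genes were thinly counted or carried clone names. EVPL, which encodes the cornified envelope protein envoplakin, had 38 high and 119 low counts and a log2 ratio of -0.95 (-1.52 to -0.42). BEST1, a chloride channel gene, had a log2 ratio of -0.87 (-1.33 to -0.42), GAL3ST1, a sulfotransferase gene, one of -1.03 (-1.64 to -0.46), and ZNF114, a zinc finger gene, one of -1.10 (-1.82 to -0.43). SPATA1, NCRNA00093 and 6 clone-named transcripts, RP5-940J5.9 and CTC-250I14.6 among them, had log2 ratios between -1.34 and -0.64. RPL22P19, a processed pseudogene of RPL22 whose reads could be shared with its parent, had the lowest ratio, -2.56, with 41 of its 152 low counts in 1 cell. All 15 named lower genes stayed past 1.5-fold without the top cells, and in 12 of the 15 the cells between lay between the other groups. With scores taken after thinning, however, 13 of the 15 fell inside 1.5-fold, among them RPL22P19 at -0.45, NCRNA00093 at -0.02, SPATA1 at -0.05 and BEST1 at -0.12, and only ZNF114 (-1.41) and EVPL (-0.89) stayed past it. With scores from the feature without a number 5 of the 15 stayed past it. Without cells above 25% mitochondrial counts 12 did, all but HIST1H1E, IL16 and CTC-250I14.6 (-0.39).

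The same cells were also split by CDKN1A counts after thinning to 5000 counts. The genes below were picked by the same CDKN1A counts in the same cells, so the values are a description and support nothing. The classes held 2104 cells with 0 counts, 802 with 1, 261 with 2 and 112 with 3 or more, and the class at 0 includes cells whose counts were lost by thinning. IL11 stood at 10.5 (8.57 to 12.7), 8.44 (5.77 to 11.9), 14.6 (8.63 to 23.0) and 38.1 (23.2 to 58.8) CPM in that order, the last class from 20 counts. CCNA1 stood at 31.0, 32.4, 55.8 and 101 CPM. ULBP2 stood at 19.5 (16.8 to 22.4), 24.0, 27.5 and 57.1 (38.5 to 81.5) CPM, and ULBP1 at 15.5, 23.5, 21.8 and 36.2 CPM. Of the named lower genes, HIST1H1E stood at 244 (235 to 254), 224 (209 to 240), 209 (184 to 236) and 206 (169 to 248) CPM. IL16 stood at 128 (121 to 135), 86.0 (76.9 to 95.8), 84.9 (69.5 to 103) and 116 (88.8 to 149) CPM, so its last class was not the lowest.

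**Figure D4:**
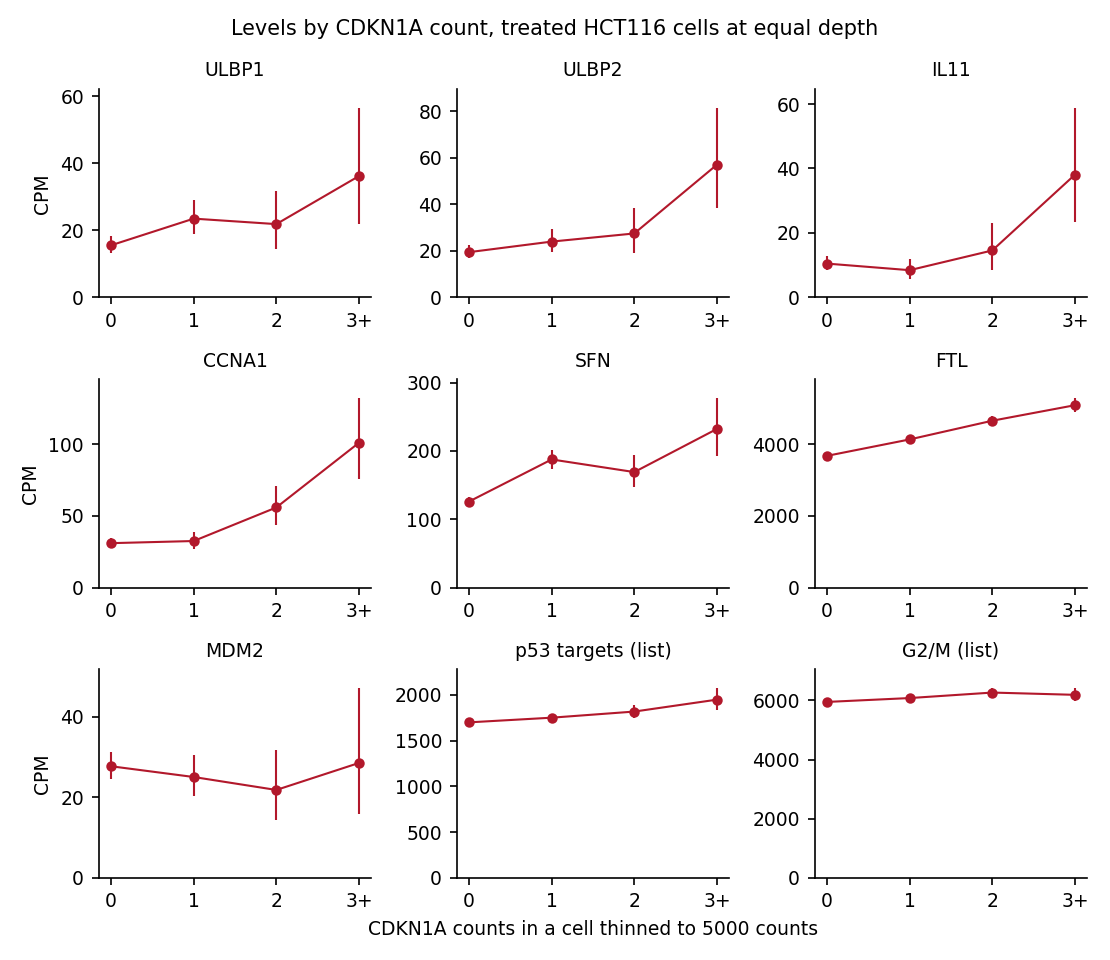
CPM (y axis, from 0) of 7 genes and 2 summed gene lists in HCT116 DAC+SB cells by CDKN1A counts per cell after thinning to 5000 counts (x axis, 3+ is 3 or more), with 95% counting intervals. ULBP2 stands at 19.5 CPM in cells with none and 57.1 CPM in cells with 3 or more, MDM2 at 27.7 and 28.5 CPM, and the p53 list at 1700 and 1949 CPM.

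The p53 targets as a group were barely higher. Of 55 listed genes without CDKN1A, 52 were measured and 43 had at least 100 counts; none was 1.5-fold higher (background 1.01%) and none 1.5-fold lower. The median log2 ratio was 0.11 beside 0.05 over all genes, 31 of 43 were above 0, and the summed list stood at 1823 CPM in high, 1704 in between and 1693 in low cells. Its log2 ratio was 0.11 (0.08 to 0.14), and -0.01 with scores from the CDKN1A feature without a number. In thinned cells with 0, 1, 2 and 3 or more CDKN1A counts the list stood at 1700 (1675 to 1726), 1751, 1818 and 1949 (1831 to 2072) CPM. The most counted members were RPS27L at 0.03 (-0.05 to 0.10), the pro-apoptotic PMAIP1 at 0.14 (0.05 to 0.23) and SERTAD1 at 0.19 (0.08 to 0.29). The next 4 genes were chosen after their values were seen. MDM2, the p53 target that encodes the ubiquitin ligase of p53, stood at 24.8, 27.4 and 27.8 CPM, a log2 ratio of -0.17 (-0.42 to 0.08). GDF15, a stress cytokine, stood at 12.4, 8.47 and 8.42 CPM and had the highest ratio of the list, 0.56 (0.16 to 0.96). ZMAT3, an RNA-binding protein gene, had 0.39 (0.04 to 0.75) and the kinase gene PLK2 -0.26 (-0.41 to -0.12).

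The p53 list gave a log2 ratio of 0.16 in H1299 DAC+SB, 0.04 in H1299 DMSO and 0.08 in HCT116 DMSO. The HCT116 DAC+SB value exceeded that of HCT116 DMSO by 0.03 (-0.01 to 0.07) and lay 0.05 below that of the p53-lacking H1299 DAC+SB cells (difference -0.05, -0.09 to -0.01). These intervals cover counting error within 1 library each, and the lines were not compared beyond that.

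Cell cycle genes also differed little, although p21 inhibits the cycle. The 57 tested S phase genes included none past 1.5-fold, 28 were above 0, the median log2 ratio was -0.00, and the sum stood at 2242 CPM in high, 2270 in between and 2244 in low cells. The ratio of the sums was -0.00 (-0.03 to 0.03). The most counted were RPA3 (a subunit of replication protein A) with 0.04 and the maintenance methyltransferase gene DNMT1 with -0.15 (-0.26 to -0.04). TK1, a thymidine kinase gene chosen after its values were seen, had 0.28 (0.16 to 0.40). Thinned to 5000 counts, high and low cells had the same median of 10 S phase counts.

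The 71 tested G2/M genes were somewhat higher in CDKN1A-high cells, 57 of them above 0 and none past 1.5-fold, with a median of 0.12. They summed to 6358, 6526 and 5802 CPM, a log2 ratio of 0.13 (0.12 to 0.15). The most counted members were TUBB4B, a tubulin gene, with 0.07, UBE2S with 0.19, TUBA1B with 0.11 and CKS2 with 0.20. Of genes chosen after their values were seen, the ubiquitin-conjugating enzyme gene UBE2C stood at 132, 128 and 96.3 CPM (0.46, 0.34 to 0.58), ANLN, which encodes anillin of the cleavage furrow, at 36.0, 36.7 and 25.3 CPM (0.51, 0.28 to 0.74), and ARL6IP1 at 351, 363 and 258 CPM (0.44, 0.37 to 0.51). In these the cells between were as high as the high cells. With scores taken after thinning the list's ratio was -0.06, and in cells of 5000 to 10000 counts it was -0.01. In thinned cells with 0, 1, 2 and 3 or more CDKN1A counts the list stood at 5950, 6081, 6267 and 6190 CPM. It was thus higher in each class with a count, and its direction changed with how the cells were grouped.

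The same rule, with the unlike score limits and depths given above, gave other values in the other libraries. In H1299 DAC+SB the G2/M list had a ratio of 0.55 with 30 of 71 genes 1.5-fold higher, and the S phase list 0.57 with 26 of 57, where 3.36% of all genes were higher. In H1299 DMSO the G2/M list had -0.27 and the S phase list 0.22, and in HCT116 DMSO they had -0.04 and 0.11. The G2/M ratio of HCT116 DAC+SB lay 0.41 below that of H1299 DAC+SB (difference -0.41, -0.43 to -0.39), and the S phase ratio 0.58 below (difference -0.58, -0.61 to -0.54).

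Among cyclins, kinases and other inhibitors, CDKN1C had the highest ratio. It encodes p57, an inhibitor of the same family as p21, and stood at 93.4 CPM in high, 76.2 CPM in between and 63.3 CPM in low cells, a log2 ratio of 0.56 (0.42 to 0.70), just under 1.5-fold. CCND3, cyclin D3, had 0.40 (0.20 to 0.60), CDK4 0.30 (0.13 to 0.47), CDKN1B, which encodes p27, 0.14 (-0.22 to 0.50), CDKN2D 0.11 (0.00 to 0.22) and CDKN2A 0.01 (-0.10 to 0.12). CCND3 and CDKN1B were chosen after their values were seen. None of the 23 tested genes passed 1.5-fold, and the sum had a ratio of 0.11 (0.07 to 0.16), or 0.055 with scores taken after thinning.

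The stress and treatment lists each held at most 1 gene past the threshold, where 1.01% of all genes were higher and 0.848% lower. A single gene in a list of this size is not read as a change of the list. Mitochondrial and ribosomal protein genes made up a smaller share of gene counts in high cells. Leaving them out of the total lowers the ratio of every list without such genes by the same amount. That amount is given for G2/M under the processing alternatives. It applies to the small list ratios above and below, glycolysis included. In the ATF4 list 1 of 28 was higher, DDIT3, which encodes the stress factor CHOP, at 15.6, 11.2 and 9.63 CPM with a ratio of 0.69 (0.33 to 1.06), and the sum had 0.11, or 0.015 with scores from the CDKN1A feature without a number. Its most counted members MTHFD2 and SARS had 0.25 and -0.04. Among genes known to respond to histone deacetylase inhibitors 1 of 32 was lower. This was TXNIP, an inhibitor of thioredoxin, at 5.84, 8.39 and 10.6 CPM with -0.86 (-1.37 to -0.38). H1F0, a linker histone gene, had -0.34 (-0.39 to -0.28), DHRS2 0.06 and CLU 0.09, and the sum, 0.18, was 0.04 without MT2A and 0.095 with scores from that feature. In thinned cells with 0, 1, 2 and 3 or more CDKN1A counts H1F0 stood at 604, 602, 547 and 605 CPM. It was thus lower only in the class with 2 counts. TXNIP stood at 9.17, 7.65, 11.3 and 0 CPM in that order, with no steady fall. The metallothioneins summed to 10472, 10116 and 8884 CPM, a ratio of 0.24 (0.22 to 0.25), of which the zinc-binding MT2A made up 74.6% with a ratio of 0.29. Without it the ratio was 0.07, and MT1E and MT1G had 0.11 and -0.09.

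Interferon-stimulated genes had a summed ratio of 0.23 (0.19 to 0.27), with 18 of 21 tested genes above 0 and none past 1.5-fold. Their median log2 ratio was 0.18, beside 0.05 over all tested genes. The sum was 0.14 with scores taken after thinning and 0.056 with scores from the CDKN1A feature without a number. IFI6, chosen after its values were seen, stood at 54.0, 49.0 and 36.9 CPM (0.55, 0.36 to 0.74), the ubiquitin-like ISG15 at 275, 231 and 227 CPM (0.28, 0.20 to 0.36), IFITM3 had 0.21 and IRF7 0.20. Of the 13 tested intestinal differentiation genes, 11 were above 0 and 1 passed 1.5-fold (background 1.01%): ELF3, an epithelial transcription factor, at 11.2, 8.05 and 6.32 CPM with 0.82 (0.38 to 1.27). The keratins KRT18, KRT19 and KRT8 had 0.22, 0.16 and 0.28, and the sum had 0.20 (0.17 to 0.24), or 0.11 with scores from the CDKN1A feature without a number. ELF3 is also the 1 HCT116 marker past the threshold. In the list of secreted and senescence-associated genes 1 of 20 was higher (background 1.01%), the collagenase gene MMP1, at 8.39, 3.59 and 4.59 CPM with 0.87 (0.35 to 1.39), in 34 high and 31 low cells. SERPINE2 had 0.50 (0.36 to 0.64), TIMP1 0.27 and AREG 0.02, and the sum had 0.15, or -0.034 with scores from the CDKN1A feature without a number.

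All 21 glycolysis genes had ratios above 0 and none passed 1.5-fold, the sum at 0.13 (0.12 to 0.14), or -0.016 with scores from the CDKN1A feature without a number, with TPI1 at 0.30 (0.26 to 0.34), GAPDH at 0.10 and ALDOA at 0.18. All 10 tested mitochondrially encoded protein genes were below 0, with a sum of -0.16 (-0.16 to -0.15), from -0.08 for MT-ND2 to -0.39 for MT-ND6. The sum was -0.046 with scores taken after thinning, -0.088 in cells of 5000 to 10000 counts and -0.077 with scores from the CDKN1A feature without a number. MT-CO1 and MT-CYB had -0.19 and -0.13. Of 84 ribosomal protein genes 14 were above 0, the sum at -0.05. The remaining lists had sums of 0.13 for BCL2 family genes (CYCS 0.10, BIK 0.30), or 0.017 with scores from the CDKN1A feature without a number, 0.13 for heat shock chaperones (HSP90AA1 0.20, DNAJB1 0.34), which turned to -0.022 with scores taken after thinning, 0.02 for immediate early genes (IER2 0.00, IER3 -0.05), or -0.13 with scores from the CDKN1A feature without a number, 0.04 for cancer-testis genes (MAGEB2 0.09, PAGE5 0.06), or -0.078 in cells of 5000 to 10000 counts, and 0.03 for DNA methyltransferase, UHRF1 and HDAC genes (DNMT1 -0.15, HDAC2 0.15), or -0.074 with scores taken after thinning, with no member past 1.5-fold.

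**Figure D5:**
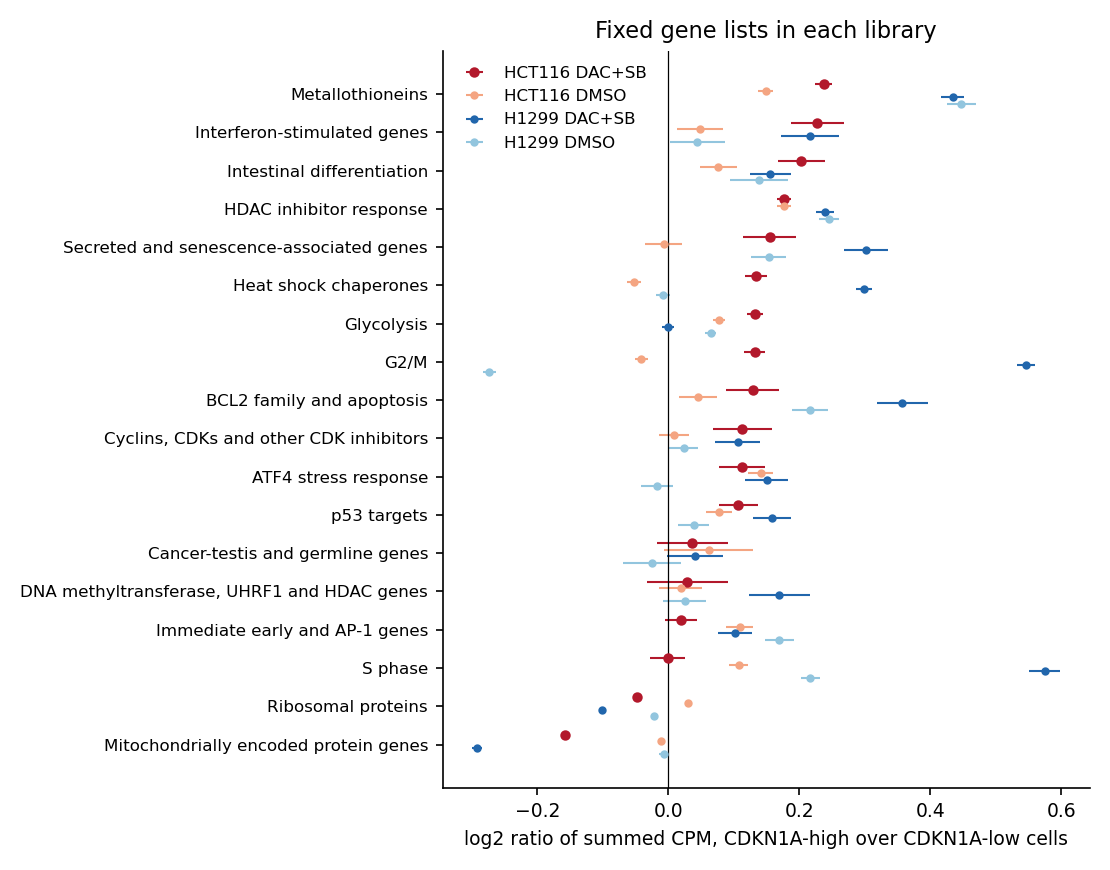
Log2 ratio of summed CPM in CDKN1A-high over CDKN1A-low cells (x axis) for 18 gene lists (y axis), with 95% counting intervals and 1 colour for each library. In HCT116 DAC+SB every list lies between -0.16 and 0.24, whereas the G2/M list lies at 0.55 in H1299 DAC+SB and at -0.27 in H1299 DMSO.

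Likeness to CDKN1A over single cells was weak. Over the 3279 thinned cells and 2044 genes seen in at least 20% of them, Spearman correlations with CDKN1A had a median of 0.0064. The highest were 0.119 for the ferritin light chain gene FTL, 0.103 for TPI1, 0.102 for SPTSSA, 0.0973 for SFN, which encodes 14-3-3 sigma, and 0.0948 for the ferritin heavy chain gene FTH1. HMGA1, SQSTM1, CSTB, TMSB4X and MICA followed, between 0.0825 and 0.0919. Among the lowest were -0.0927 for MT-RNR1, -0.0834 for MT-ND1, -0.0765 for RPL37 and -0.0733 for MT-RNR2. These values describe sparse counts that share cells and depth, and such weak correlations are no finding. FTL stood at 4989, 4234 and 3577 CPM in high, between and low cells. SFN stood at 172, 159 and 122 CPM, a log2 ratio of 0.49 (0.39 to 0.60).

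Few of the genes that differed here also differed in another library. Of the 107 higher genes 82 were tested in H1299 DAC+SB, and 9 of them (10.98%, and 2.20% of the 409 higher there, where 3.36% of all genes were higher) passed 1.5-fold upward there too. Among them were IL11, ULBP1, ULBP2, CCNA1, ARHGAP11B, HIST1H2BO, LRRC15 and RP11-702F3.3. In H1299 DAC+SB the log2 ratios were 1.17 (0.70 to 1.65) for IL11, 1.02 (0.56 to 1.51) for ULBP1, 0.71 (0.28 to 1.14) for ULBP2 and 1.46 (1.11 to 1.82) for CCNA1. Of 61 lower genes tested there, 5 were lower too (8.20%, where 1.49% of all genes were lower), RP11-290D2.6, TXNIP, RAB26, CTB-161K23.1 and CTC-232P5.1. Only 42 of the 82 higher genes had a ratio above 0 in H1299 DAC+SB. In HCT116 DMSO 4 of 85 higher genes (4.71%, where 0.761% of all genes were higher) passed, ELF3, HCP5 and WNT7B among them, and 3 of 68 lower genes (4.41%, where 0.596% of all genes were lower). In H1299 DMSO 2 of 69 higher (2.90%, where 0.946% of all genes were higher) and 2 of 60 lower genes (3.33%, where 1.36% were lower) passed. HIST1H1E went the other way, with ratios of 0.17 in H1299 DAC+SB, 0.78 in H1299 DMSO and 0.35 in HCT116 DMSO.

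TE RNA made up 5.34% of counts in high, 5.28% in between and 5.68% in low cells, a log2 ratio of -0.09 (-0.09 to -0.08). Its sign changed with the processing: it was 0.021 in cells of 5000 to 10000 counts and 0.011 with scores from the numbered CDKN1A feature. Every score, the reported one included, divides by gene counts alone. At equal CDKN1A counts and depth, a cell with more TE counts thus scores higher. These settings are therefore no clean check on the sign, and the part of the score's divisor was not tested. With scores taken after thinning the TE ratio was 0.22, but that setting favours TE-rich cells and gives no check on the sign. The LTR12 names, which hold LTR12C, a long terminal repeat that acts as a promoter after this kind of treatment, had a ratio of -0.04, Alu names -0.23 and L1 names -0.28. Of 200 families with at least 100 counts, 4 (2% of those tested) were 1.5-fold higher and 18 (9%) lower, around a median of -0.18. The 4 higher families were MLT1E3, MER51C, MER51B and MLT2A1. A single locus held 57.3% of the MER51C counts and 68.3% of the MER51B counts. Without that locus the ratios were 0.38 (-0.26 to 1.00) for MER51C and -0.36 (-1.43 to 0.65) for MER51B. These 2 families were thus not higher apart from 1 locus each. Without their own top locus MLT1E3 and MLT2A1 had 3.81 and 1.00. MLT2A1, at 0.60, was past 1.5-fold upward in only 8 of 16 alternative settings. It was 0.42 with scores taken after thinning, 0.28 against all other cells, 0.54 without mitochondrial and ribosomal protein genes, 0.55 in cells below the median cycle share and 0.56 without the top cells. High cells with at least 3 CDKN1A counts gave 0.39, as did leaving out the cells that held at least 10 counts summed over ZSCAN4 and 8 further genes. MLT1E3 had 751 counts in 31 high cells, 400 in 48 cells between and 224 in 44 low cells, a ratio of 2.44 (2.23 to 2.66), or 1.26 without the cells rich in ZSCAN4 and those 8 genes, and 2 loci held 96.1% of its counts. With scores from the CDKN1A feature without a number the ratios of these 4 families were -1.88, -0.65, -0.68 and -0.52. The lowest family was LOR1a with 30 high and 108 low counts, a ratio of -1.15 (-1.79 to -0.56). LTR12C, with 223126 high and 371870 low counts, had -0.04, THE1B -0.01 (-0.04 to 0.01) and AluY -0.27. With scores taken after thinning they had 0.29, 0.13 and 0.07, in the setting that favours TE-rich cells. With scores from the numbered CDKN1A feature they had 0.06, 0.08 and -0.17. The sign of LTR12C thus also changed with that feature and the sign of AluY did not, while the reported interval of THE1B spans 0.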

How the data were processed

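The authors deposited tables of counts per gene and per TE locus for single cells of 4 libraries, and these counts were used as deposited. CASAVA, STAR and the builds GRCh38 and hg38 are named in the submitters' processing notes, and no source used here says whether molecular identifiers were counted. Cells were assigned to libraries by the label in their barcode. Depth was the sum over both tables, gene levels were CPM over gene counts without CDKN1A, and TE levels were CPM over all counts. Features sharing a gene name were summed and joined names were left out. Ratios have exact conditional binomial intervals, sums exact Poisson and shares Clopper-Pearson intervals, all at 95%, for counting error only. Thinning drew 5000 counts per cell without replacement. No doublets were removed. Genes with at least 100 counts over both groups were tested at 1.5-fold. Named genes are the 15 per direction past 1.5-fold whose nearer interval bound lay farthest from 1, list members past 1.5-fold and the 2 to 4 most counted members of each list, the 10 most counted TE families with the 5 highest and 5 lowest, and the 10 highest and 5 lowest genes by likeness. The members, lists and tests were chosen with earlier results of these data known. Gene lists covered p53 targets, cell cycle phases, cyclins and inhibitors, apoptosis, stress, treatment response, differentiation, metabolism and cell line markers. Coordinates are from GENCODE v29 and promoters from RefSeq (GRCh38.p14). The scripts used Python 3.11.15, numpy 2.4.6, pandas 2.3.3, scipy 1.17.1 and matplotlib 3.10.9, and were tested on simulated data. Alternatives covered depth, thresholds, the score, the scaling and single cells. A few genes that these rules name are not reported here.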

Additional observations from a re-analysis of the deposited data

Results flagged for a closer look

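In 8 cases a list or share was higher in CDKN1A-high than in CDKN1A-low cells in HCT116 DAC+SB and lower in another library, or the reverse, with counting intervals on opposite sides of 0. The difference was not tested, since each library was 1 sample, and the rule set unlike score limits in the libraries. The G2/M list had a log2 ratio of 0.13 in HCT116 DAC+SB and of -0.27 in H1299 DMSO and -0.04 in HCT116 DMSO. Heat shock chaperones had 0.13 and, in HCT116 DMSO, -0.05. Ribosomal proteins had -0.05 and, in HCT116 DMSO, 0.03. The H1299 markers had 0.28 and, in H1299 DAC+SB, -0.15. Without VIM, which held 75.1% of their counts in H1299 DAC+SB, the sums had 0.29 and 0.49. The opposite sign of the sum thus rested on VIM. Of the tested members, 4 of 4 were above 0 in HCT116 DAC+SB and 1 of 6 in H1299 DAC+SB. The TE share had -0.09 and, in HCT116 DMSO, 0.18. Within it, LTR12 names had -0.04 and, in HCT116 DMSO, 0.33, and Alu names -0.23 and, in HCT116 DMSO, 0.40. With scores taken after thinning the HCT116 DAC+SB values were themselves -0.063 for G2/M, -0.022 for heat shock chaperones, 0.22 for the TE share and 0.29 for LTR12C, each with the sign of the HCT116 DMSO value of that list or share (LTR12C: of the LTR12 names). The sum of Alu names was not scored again, but AluY (0.067), AluSg (0.068), AluSx (0.13), AluSp (0.13) and AluSx1 (0.20) then also had the sign of the Alu names in HCT116 DMSO, whereas AluYf1 had -0.074. That setting favours TE-rich cells, so its TE values give no check on these signs. In thinned cells with 0, 1, 2 and 3 or more CDKN1A counts G2/M stood at 5950, 6081, 6267 and 6190 CPM. Heat shock chaperones stood at 5361, 5661, 5393 and 5929 CPM, so no class with a count lay below the first. In cells of 5000 to 10000 counts G2/M was -0.0080, heat shock chaperones 0.048 and the TE share 0.021. The signs of G2/M and the TE share were thus not stable, and the other libraries were not scored again in this way. For the TE share, the division of every score by gene counts also bears on the sign, and its part was not tested. Ribosomal proteins kept their sign with scores taken after thinning, at -0.034.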

How the results depend on the processing

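No paired analysis was possible because each group was 1 library. No comparison with the lowest 25% of the score was run, since 44.7% of cells tie at 0. The reported values were 107 genes higher, 90 lower, and log2 ratios of 0.11 for p53 targets, -0.00 for S phase, 0.13 for G2/M and -0.09 for the TE share. Over the alternatives 52 recomputed values of these stayed close, 41 moved and 7 took the opposite sign of a called value. The cause was not tested. Of 62 recomputed values of the 3 lists and the TE share 11 had another sign than the reported value, as had 14 of 238 for the other lists, 35 of 320 for TE families and 9 of 480 for named genes. For G2/M and the TE share, the same cells thinned gave 0.094 and -0.070, means of the cells' shares 0.090 and -0.065, and the 5% deepest cells left out 0.11 and -0.098. Thinning with new scores, which favours TE-rich cells, gave -0.063, 0.22 and an S phase ratio of -0.054. Cells of 5000 to 10000 counts gave -0.0080, 0.021 and -0.096. Without mitochondrial and ribosomal protein genes the values were 58 genes higher, 131 lower, 0.060 (G2/M), -0.15 (TE), -0.073 (S phase) and 0.049 (p53). For a list without such genes this setting changes the total alone. Each such list is thus lowered as G2/M is, from 0.13 to 0.060. The top 10% of the score gave 278 higher, 204 lower, 0.0027 (TE), 0.054 (S phase) and 0.17 (p53). The TE share was -0.054 without cells above 25% mitochondrial counts and -0.040 in cells below the median cycle share. The numbers of higher and lower genes were 2 and 7 at 2-fold, 715 and 851 with at least 20 counts, and 8 and 5 with at least 500 counts. The following alternatives were chosen after seeing the data. Against all other cells G2/M was 0.050 and TE -0.039. High cells with at least 3 CDKN1A counts gave 166 higher, 177 lower, 0.22 (G2/M), -0.18 (TE) and 0.056 (S phase). Scores from the numbered feature gave 73 higher, 186 lower, 0.081 (G2/M), 0.011 (TE) and -0.060 (S phase). Scores from the feature without a number gave 206 higher, 153 lower, 0.11 (G2/M), -0.24 (TE), 0.075 (S phase) and -0.013 (p53). Without the cell with most counts in each group TE was -0.093. Sign changes of values reported as called were, elsewhere, -0.022 for heat shock chaperones, 0.0034 for HIST1H1E and 0.0077 for Tigger2 (thinned with new scores), -0.15 for LYPD5 (5000 to 10000 counts), 0.056 for CTC-250I14.6 (top 10%), and -0.29 and -0.11 for RMRP (below the median cycle share, at least 3 CDKN1A counts). With the feature without a number they were -0.034 for secreted genes, -0.016 for glycolysis, -4.27 for RP11-432M8.17, -1.02 for RP11-432M8.22, -0.039 for CCNA1, -0.14 for PNP, -1.88 for MLT1E3, -0.65 for MER51C, -0.68 for MER51B and -0.52 for MLT2A1. Other sign changes included AluSg (0.068), AluSx (0.13), AluSp (0.13) and AluSx1 (0.20), thinned with new scores, a setting that gives no check on TE signs. Without the cells holding at least 10 counts of 9 genes, also chosen after seeing the data, 107 genes were higher and 90 lower, and MLT1E3 was 1.26. Depth limits the split itself, since 94 high cells rest on 1 count and low cells are cells without a detected count.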

Other observations

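A handful of cells carried the RNA of genes known to be switched on by DUX4, a transcription factor of the early embryo. These genes were chosen after their values were seen, and no list of them was fixed. ZSCAN4 had 77 counts in 5 CDKN1A-high cells, none in the cells between and 3 in 1 CDKN1A-low cell. PRAMEF1 had 32, 0 and 1 counts in the same order, PRAMEF2 33, 1 and 0, and TRIM43, seen more widely, 73, 21 and 17 counts in 17, 16 and 14 cells. Summed over 9 such genes (ZSCAN4, TRIM43, TRIM43B, TRIM49, TRIM49B, PRAMEF1, PRAMEF2, PRAMEF12 and PRAMEF20), 4 of 3279 cells had at least 10 counts, 3 of them CDKN1A-high and 1 between. These 4 cells had 11, 52, 118 and 92 such counts and total counts between 6748 and 8694. Since the genes were picked for their counts in CDKN1A-high cells, the groups of these cells carry no information on CDKN1A. The same 4 cells held 97, 69, 90 and 91 counts of RP11-432M8.17, the gene with the highest ratio in the report. With 4 cells of 1 library, and genes picked from these data, the counts describe those cells only.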
